A study of Mus musculus with 9 samples.

Results

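The 10 genes described here encode enzymes that remove superoxide and peroxides: *Sod1*, *Sod2*, *Cat*, *Prdx1*, *Prdx2*, *Prdx3*, *Prdx4*, *Prdx5*, *Prdx6* and *Gpx1*. They were taken by gene symbol, as enzymes of known scavenging activity, out of 26858 genes in a table of RNA-seq read counts. The RNA came from nephron progenitors of mouse kidneys at E18.5, sorted by flow cytometry for the green fluorescence of an eGFP/Cre fusion that is driven by the *Six2* promoter. Control cells were *Six2-Qpc*+/- (4 libraries, numbered 71, 72, 73 and 76 in the labels) and mutant cells were *Six2-Qpc*-/- (5 libraries, 74, 75, 77, 78 and 79). Both genotypes carried the transgene and at least 1 inactivated copy of *Uqcrq*, the gene of the complex III subunit QPC, so the controls had Cre and were heterozygous, not wild type. Because *Six2* is a gene of the uncommitted progenitor, cells that are leaving that state and still hold the fluorescent protein can be sorted as well. The labels do not say that each library came from a separate animal, so all p-values measure the spread between these libraries.

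Respiratory chain complexes, complex III among them, are known sites where electrons leak to oxygen and form superoxide. Superoxide dismutases turn superoxide into hydrogen peroxide, which catalase, the peroxiredoxins and glutathione peroxidase then remove. The peroxiredoxins are kept active by thioredoxin or glutathione, and glutathione peroxidase by glutathione.

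Library totals were 22571729 to 23691130 counts in control and 21040536 to 23986458 counts in mutant, and genotypes did not differ beyond their spread (p = 0.135, exact permutation test, 2-sided). Levels are given as CPM, counts per 1000000 counts of the library size normalized by the TMM method. The deleted gene *Uqcrq* (ENSMUSG00000044894, chr11:53427922-53430831) was read at 107, 76.8, 91.1 and 101 CPM in control 71, 72, 73 and 76. In mutant 74, 75, 77, 78 and 79 it was read at 16.5, 28.2, 22.6, 20.3 and 19.0 CPM. The 5 mutant values all lay under the lowest control value, so the labels held for all 9 libraries.

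All 10 enzymes were expressed well above the filter on low counts and all 10 were tested. The enzymes together took 0.419 ± 0.0479% of the counts in control (SD, n = 4) and 0.421 ± 0.0463% in mutant (SD, n = 5). In the edgeR quasi-likelihood test with Benjamini-Hochberg adjustment over 14990 genes, 1 of the 10, *Cat*, passed an adjusted p of 0.05, and it was lower in mutant cells. None was called higher. Among all tested genes 14.8% were called, 7.82% higher and 7.02% lower, so 1 of 10 is close to the background. The genotypes did not overlap for 1 of the 10, *Cat* again, against 15.2% of all tested genes. An unadjusted p under 0.05 was found for 3 of the 10, with 2 of them higher in mutant, compared with 31.4% of all tested genes. DESeq2 called 1 of the 10, lower, and none higher, where it called 19% of all genes it tested and 10.4% as higher. Limma-voom with sample quality weights called 5 of the 10, with 4 of them higher, where it called 32.5% of all tested genes and 16.1% as higher. The median log2 fold change, mutant against control, was 0.09 for the enzymes and −0.01 for all tested genes, and 0.09 for the 3577 genes whose mean CPM was at least that of the lowest of the enzymes. The median size of the change, without its sign, was 0.18 for the enzymes and 0.30 for all tested genes. All tested genes include many with fewer counts than the enzymes, and this size was not computed for the 3577 genes alone. It therefore does not show that the enzymes changed less than genes of like abundance. Of those 3577 genes edgeR called 16.9%, 11.7% as higher and 5.2% as lower.

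Catalase, a heme enzyme of peroxisomes, was the only enzyme of the set that the main edgeR test called. *Cat* (ENSMUSG00000027187, chr2:103453849-103485160) was read at 186, 201, 186 and 227 CPM in control 71, 72, 73 and 76. In mutant 74, 75, 77, 78 and 79 it was read at 126, 159.5, 166, 162 and 159 CPM. Control 76 was the highest library and mutant 74 the lowest, the other 4 mutant libraries lay close together, and the genotypes did not overlap. *Cat* fell from 199.9 ± 19.2 CPM (SD, n = 4) to 154 ± 16.3 CPM (SD, n = 5). The log2 fold change was −0.37 (standard error, SE, 0.12, 95% interval −0.62 to −0.12, adjusted p = 0.0451, edgeR quasi-likelihood test), and the exact permutation test gave p = 0.00794, the smallest that 4 against 5 libraries allow. In bulk RNA, fewer cells that express a gene and less of its RNA in each cell cannot be told apart. The call lay near the threshold and was lost with any 1 of the 9 libraries left out (control 71, 72, 73 or 76, mutant 74, 75, 77, 78 or 79), with adjusted p between 0.0548 and 0.127 and log2 fold changes between −0.41 and −0.29 in the edgeR test. Over 18 alternatives the log2 fold change kept its sign, between −0.43 and −0.29, and 6 of the 18 called it.

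Glutathione peroxidase 1, a selenocysteine enzyme of the cytosol and mitochondria, had the largest fitted increase of the set. *Gpx1* (ENSMUSG00000063856, chr9:108339080-108340338) was read at 441, 311, 380.4 and 416 CPM in control 71, 72, 73 and 76, and at 447, 579.7, 511, 565 and 416 CPM in mutant 74, 75, 77, 78 and 79. Mutant 79 lay among the control libraries and the other 4 mutant libraries lay above all controls, mutant 74 by a small margin. The means were 387 ± 56.6 CPM (SD, n = 4) and 504 ± 71.6 CPM (SD, n = 5). The log2 fold change of 0.38 (SE 0.14, 95% interval 0.08 to 0.67) did not pass the adjustment (adjusted p = 0.0781, edgeR quasi-likelihood test; exact permutation p = 0.0556). *Gpx1* passed without mutant 74 (adjusted p = 0.0472, edgeR), and its adjusted p ranged from 0.00130 to 0.211 over 18 alternatives, of which 4 called it.

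Peroxiredoxin 6, which reduces peroxides with glutathione and also has a phospholipase activity, had a similar fit. *Prdx6* (ENSMUSG00000026701, chr1:161240112-161251219) was read at 750.3, 566, 634 and 766 CPM in control 71, 72, 73 and 76, and at 731, 952, 942, 907 and 772 CPM in mutant 74, 75, 77, 78 and 79. Mutant 74 lay within the control range, and mutant 79 just above control 76. The means were 679 ± 95.3 CPM (SD, n = 4) and 861 ± 102 CPM (SD, n = 5), with a log2 fold change of 0.34 (SE 0.13, 95% interval 0.06 to 0.62, adjusted p = 0.0903, edgeR quasi-likelihood test; exact permutation p = 0.0635). *Prdx6* passed without mutant 74 (adjusted p = 0.0414, edgeR), and its adjusted p ranged from 0.00219 to 0.234 over 18 alternatives, of which 4 called it.

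A ratio of counts within a library does not depend on how libraries are scaled. The ratio of *Gpx1* to *Cat* counts, chosen after the values were seen and therefore given without a test, was 2.37, 1.55, 2.04 and 1.84 in control 71, 72, 73 and 76. In mutant 74, 75, 77, 78 and 79 it was 3.56, 3.63, 3.09, 3.48 and 2.61. All 5 mutant libraries lay above all 4 control libraries, with means of 1.95 ± 0.347 (SD, n = 4) and 3.27 ± 0.428 (SD, n = 5). The ratio pairs the largest fitted rise of the set with its only called fall. The gene lengths are 1041 bases for *Gpx1* and 2613 bases for *Cat*. The ratio is therefore not free of the difference between libraries by gene length described below, whose part in it was not tested.

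Neither superoxide dismutase was called by the main edgeR test. *Sod1* (ENSMUSG00000022982, chr16:90220742-90226322), the copper and zinc enzyme of the cytosol, was read at 71.7, 58.6, 55.3 and 66.4 CPM in control 71, 72, 73 and 76 and at 68.3, 72.5, 65.5, 80.7 and 64.2 CPM in mutant 74, 75, 77, 78 and 79. Mutant 78 was the highest library, and the other mutant libraries lay around control 71 and 76. Its log2 fold change was 0.16 (95% interval −0.10 to 0.42, adjusted p = 0.399, edgeR quasi-likelihood test). *Sod2* (ENSMUSG00000006818, chr17:13007839-13018119), the manganese enzyme of the mitochondrial matrix, was read at 95.1, 78.6, 81.7 and 94.8 CPM in control and at 83.9, 116, 107, 109.8 and 88.6 CPM in mutant, in the same order of libraries. Mutant 75, 77 and 78 lay above every control library, while mutant 74 and 79 lay within the control range. Its log2 fold change was 0.21 (95% interval −0.06 to 0.48, adjusted p = 0.283, edgeR quasi-likelihood test). *Sod2* was called higher by limma-voom (adjusted p = 0.0447, log2 fold change 0.30), and its adjusted p ranged from 0.0337 to 0.512 over 18 alternatives, of which 2 called it.

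**Figure D1:**
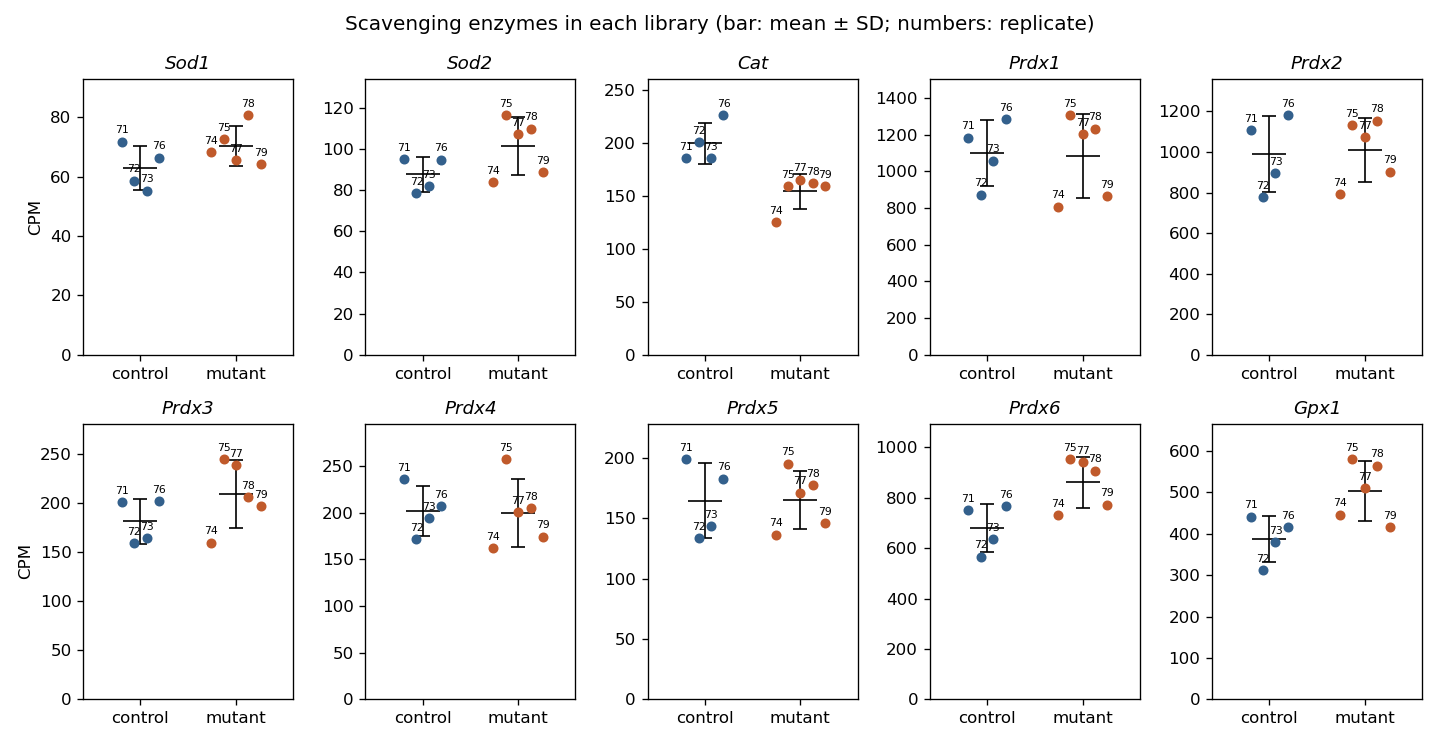
CPM (vertical axes, from 0) of each enzyme in 4 control and 5 mutant libraries; points are libraries with their replicate numbers, and the horizontal marks and bars are means ± SD. The genotypes are apart for *Cat*, where mutant libraries lie between 126 and 166 CPM and control libraries between 186 and 227 CPM, and overlap for the other 9 enzymes.

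The mitochondrial peroxiredoxin *Prdx3* (ENSMUSG00000024997, chr19:60864051-60874556), which is reduced by mitochondrial thioredoxin, was read at 201, 159, 164 and 202 CPM in control 71, 72, 73 and 76. In mutant 74, 75, 77, 78 and 79 it was read at 159, 244, 238, 206 and 197 CPM. Mutant 75 and 77 stood above the other libraries and mutant 74 was level with control 72. The log2 fold change was 0.21 (95% interval −0.09 to 0.51, adjusted p = 0.341, edgeR quasi-likelihood test), and of 18 alternatives limma-voom alone called it (adjusted p = 0.0490, with a range of 0.0490 to 0.590 over the 18). *Prdx5* (ENSMUSG00000024953, chr19:6906697-6910106), found in mitochondria, peroxisomes and cytosol, was read at 199, 133, 143 and 183 CPM in control and at 137, 195, 171, 177 and 146 CPM in mutant. Both genotypes spanned nearly the same range. The log2 fold change was 0.01 (95% interval −0.31 to 0.32, adjusted p = 0.980, edgeR quasi-likelihood test).

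The cytosolic peroxiredoxins PRDX1 and PRDX2 are reduced by thioredoxin. *Prdx1* (ENSMUSG00000028691, chr4:116685544-116700822) was read at 1184, 873, 1059 and 1287 CPM in control 71, 72, 73 and 76 and at 808, 1308, 1205, 1234 and 866 CPM in mutant 74, 75, 77, 78 and 79. *Prdx2* (ENSMUSG00000005161, chr8:84969587-84974834) was read at 1107, 778, 895 and 1182 CPM in control and at 792, 1131, 1073, 1154 and 903 CPM in mutant. For both genes mutant 74 and 79 and control 72 and 73 were the low libraries, and the genotypes overlapped over almost their whole range. The log2 fold changes were −0.02 for *Prdx1* (95% interval −0.38 to 0.34, adjusted p = 0.944) and 0.03 for *Prdx2* (95% interval −0.30 to 0.36, adjusted p = 0.918), both from the edgeR quasi-likelihood test. *Prdx1* was called in 1 of 18 alternatives, as lower with 1 surrogate variable (log2 fold change −0.22, adjusted p = 0.0246 in edgeR, with a range of 0.0246 to 0.980 over the 18). *Prdx4* (ENSMUSG00000025289, chrX:155323918-155340754), the peroxiredoxin of the endoplasmic reticulum, was read at 236, 172, 194 and 207 CPM in control and at 162, 257, 201, 205 and 174 CPM in mutant. Mutant 75 was the highest library and mutant 74 the lowest. Its log2 fold change was −0.02 (95% interval −0.33 to 0.29, adjusted p = 0.951, edgeR quasi-likelihood test). These intervals allow falls of up to about 0.38 and rises of up to about 0.36 on the log2 scale. The fitted sign of *Prdx1*, *Prdx2*, *Prdx4* and *Prdx5* differed between alternatives.

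Levels of different genes were compared as CPM per kb of the gene length given in the table. In control libraries the order was *Prdx2* at 615 ± 116, *Prdx1* at 479.9 ± 77.6, *Gpx1* at 372 ± 54.3, *Prdx6* at 285 ± 39.9 and *Prdx4* at 197 ± 26.0 (CPM per kb, SD, n = 4). *Prdx3* at 123 ± 15.6, *Sod1* at 97.5 ± 11.5, *Prdx5* at 90.1 ± 17.1, *Cat* at 76.5 ± 7.35 and *Sod2* at 22.9 ± 2.26 followed on the same scale. The control libraries of neighbours in this order did not overlap for *Prdx6* and *Prdx4*, *Prdx4* and *Prdx3*, and *Cat* and *Sod2*, and overlapped for the other 6 neighbouring pairs. The order depended on the length used. With the summed exon length of GENCODE M21, an alternative added after the data were seen, *Prdx1* at 362 lay above *Prdx2* at 325 and *Prdx3* at 123 above *Prdx4* at 96.0 CPM per kb, while *Sod1* went from the seventh place to the ninth, at 15.9 CPM per kb (3970 bases in place of 646). *Prdx6* kept the fourth place and *Sod2* the last, at 141 and 8.75 CPM per kb. In mutant libraries *Gpx1*, at 484 ± 68.8 CPM per kb (SD, n = 5), was slightly above *Prdx1*, at 473 ± 100.1, by the lengths in the table, and these overlapped.

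Libraries of the same genotype differed along a pattern that most of the enzymes shared. Control 72 and 73 were the lowest control libraries for 9 of the 10 enzymes, and mutant 74 and 79 the lowest mutant libraries for 9 of the 10. Mutant 74 was the lowest of its genotype for 8 of the 10. The same libraries differed in how genes of different length were read, a measure added after the values were seen. The median centred log2 CPM of 2768 genes under 1500 bases minus that of 4675 genes above 4000 bases was 0.34, −0.27, −0.04 and 0.10 in control 71, 72, 73 and 76, and −0.25, 0.16, 0.12, 0.10 and −0.30 in mutant 74, 75, 77, 78 and 79. The low libraries of each genotype thus had the lower values of this length difference too. With it as a covariate, an alternative added after the data were seen, edgeR gave adjusted p of 0.0164 for *Cat* (log2 fold change −0.36), 0.00130 for *Gpx1* (0.43), 0.00219 for *Prdx6* (0.39) and 0.0337 for *Sod2* (0.25), while the total of called genes went from 2225 to 4239, or 28.3% of those tested. The summed level of the Y-linked genes *Ddx3y*, *Eif2s3y*, *Kdm5d* and *Uty* was 263, 328 and 318 CPM in control 72, control 73 and mutant 79 and at most 0.177 CPM in the other 6 libraries. The labels give no sex. With Y-linked expression as a covariate, *Cat* had an adjusted p of 0.0520 (edgeR, log2 fold change −0.38). In the same edgeR fit the adjusted p was 0.111 for *Gpx1* (0.29), 0.120 for *Prdx6* (0.27) and 0.445 for *Sod2* (0.14). No enzyme was called in that fit.

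Peroxiredoxins depend on other genes for their reduction. Of 14 tested genes of the thioredoxin, sulfiredoxin, sestrin and glutathione systems, 3 rose and 1 fell in the main edgeR test, which called 7.82% of all tested genes higher and 7.02% lower. These genes were listed with earlier results of these data known, so the count is no test of the group. *Sesn2*, a sestrin that takes part in antioxidant and nutrient signalling, was read at 7.50, 10.7, 12.6 and 17.3 CPM in control 71, 72, 73 and 76 and at 28.6, 26.3, 30.3, 27.7 and 71.7 CPM in mutant 74, 75, 77, 78 and 79. Mutant 79 stood far above the other libraries, and all mutant libraries were above all control libraries. *Sesn2* rose by a log2 fold change of 1.62 (SE 0.32, adjusted p = 0.00689, edgeR quasi-likelihood test). *Sesn3* was read at 22.5, 26.6, 24.0 and 26.7 CPM in control and at 29.5, 47.3, 55.6, 49.6 and 47.9 CPM in mutant, with mutant 74 nearest to the controls. Its log2 fold change was 0.88 (SE 0.17, adjusted p = 0.00588, edgeR quasi-likelihood test).

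Sulfiredoxin, encoded by *Srxn1*, restores peroxiredoxins that were overoxidized. *Srxn1* was read at 10.2, 10.3, 9.02 and 5.61 CPM in control 71, 72, 73 and 76 and at 23.5, 24.7, 22.0, 26.7 and 9.39 CPM in mutant 74, 75, 77, 78 and 79. Mutant 79 lay within the control range, and the other 4 mutant libraries lay above all controls. *Srxn1* rose by a log2 fold change of 1.27 (SE 0.28, adjusted p = 0.0113, edgeR quasi-likelihood test). *Txnip*, which binds thioredoxin and inhibits it, was read at 217, 226, 226 and 299 CPM in control and at 140.3, 154, 98.1, 81.7 and 158 CPM in mutant. All mutant libraries were below all control libraries, and the log2 fold change was −0.94 (SE 0.19, adjusted p = 0.00689, edgeR quasi-likelihood test). *Txn1*, cytosolic thioredoxin and the gene of this list with the highest mean CPM, had a log2 fold change of 0.32 (95% interval 0.01 to 0.63, adjusted p = 0.142, edgeR quasi-likelihood test). Its adjusted p ranged from 0.00820 to 0.345 over 18 alternatives, of which 2 called it, limma-voom and edgeR with the length covariate. The calls of *Sesn2*, *Sesn3*, *Srxn1* and *Txnip* were made in all 18 alternatives.

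A further list held other glutathione peroxidases, extracellular superoxide dismutase (*Sod3*) and *Ccs*, the copper chaperone of SOD1. Among its 7 tested genes *Sod3* and *Gpx6* had few counts, 0 to 27 and 7 to 41 per library. Of the 7 edgeR called none, with 0 at an unadjusted p under 0.05, 0 by DESeq2 and 0 by limma-voom. Over all tested genes these shares were 14.8% by edgeR, 31.4% at an unadjusted p under 0.05, 19% by DESeq2 and 32.5% by limma-voom. *Gpx4*, which reduces lipid peroxides and had the highest mean CPM of these 7, had a log2 fold change of −0.01 (95% interval −0.29 to 0.28, adjusted p = 0.980, edgeR quasi-likelihood test). Of 11 tested genes of enzymes that produce superoxide or peroxide edgeR called none, with 2 at an unadjusted p under 0.05, 0 by DESeq2 and 1 by limma-voom. The shares of all tested genes, in the same order, were 14.8%, 31.4%, 19% and 32.5%. *Cyba*, a subunit of NADPH oxidases with the highest mean CPM of these 11, had a log2 fold change of 0.15 (95% interval −0.15 to 0.45, adjusted p = 0.505, edgeR quasi-likelihood test).

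Catalase is imported into peroxisomes by the peroxins. Of 16 peroxin genes 1 fell in the main edgeR test, against 7.02% of all tested genes, and none was called higher. An unadjusted p under 0.05 was found for 3 of the 16, with 0 higher, against 31.4% of all tested genes. DESeq2 called 2 of the 16, with 0 higher, where it called 19% of all genes it tested. Limma-voom called 7 of the 16, with 3 of them higher, where it called 32.5% of all tested genes, and edgeR with the length covariate called 5, with 2 of them higher, where it called 28.3%. *Pex11g*, which takes part in the division of peroxisomes, was read at 8.35, 9.42, 8.89 and 9.79 CPM in control 71, 72, 73 and 76 and at 7.24, 4.74, 3.42, 5.07 and 5.54 CPM in mutant 74, 75, 77, 78 and 79. All mutant libraries were below all control libraries. The log2 fold change was −0.81 (SE 0.22, adjusted p = 0.0292, edgeR quasi-likelihood test), on 67 to 242 reads per library. The call was lost without control 71, 72, 73 or 76 and without mutant 75, 77 or 78, with adjusted p up to 0.0732 in the edgeR test. *Pex19*, the peroxin gene with the highest mean CPM, had a log2 fold change of −0.07 (95% interval −0.39 to 0.24, adjusted p = 0.770, edgeR quasi-likelihood test).

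*Gpx1* contains selenocysteine, and of 7 genes needed to make or insert it 1 rose and the other 6 were not called by the main edgeR test, which called 14.8% of all tested genes. Limma-voom called 2 of the 7 and edgeR with the length covariate 3, where these fits called 32.5% and 28.3% of all tested genes. The genotypes did not overlap for 2 of the 7, against 15.2% of all tested genes. *Sars*, the seryl-tRNA synthetase that also charges ordinary serine tRNA, was read at 238, 221, 229 and 237 CPM in control 71, 72, 73 and 76 and at 369, 363, 436, 383 and 479.7 CPM in mutant 74, 75, 77, 78 and 79. The control libraries lay close together and all mutant libraries were well above them. The log2 fold change was 0.81 (SE 0.11, adjusted p = 0.00115, edgeR quasi-likelihood test). *Eefsec*, the elongation factor specific to selenocysteine, is named after its values were seen and was read at 53.6, 62.0, 56.8 and 47.1 CPM in control and at 46.1, 32.3, 46.2, 38.1 and 45.0 CPM in mutant. Its mutant libraries were all below the lowest control, control 76, and it was not called (log2 fold change −0.40, 95% interval −0.70 to −0.10, adjusted p = 0.0676, edgeR quasi-likelihood test).

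Among 10 transcription factors and cofactors known to regulate antioxidant genes, 4 rose and 1 fell in the main edgeR test, against 7.82% and 7.02% of all tested genes. The list was chosen with earlier results of these data known, so its count is no test of the group. An unadjusted p under 0.05 was found for 6 of the 10, against 31.4% of all tested genes. DESeq2 and limma-voom also called 6 each, 4 of them higher, where they called 19% and 32.5%. Without control 71, control 73 or mutant 79, edgeR called 2 of the 10. *Nfe2l2*, which encodes the activator NRF2, was read at 83.5, 72.5, 73.1 and 98.8 CPM in control 71, 72, 73 and 76 and at 106, 191, 159, 155 and 118 CPM in mutant 74, 75, 77, 78 and 79. All mutant libraries were above all control libraries, mutant 74 by the smallest margin. *Nfe2l2* rose by a log2 fold change of 0.83 (SE 0.17, adjusted p = 0.00822, edgeR quasi-likelihood test). *Bach1*, a repressor that binds the same DNA element, rose from 9.08 ± 1.45 CPM (SD, n = 4) to 15.1 ± 2.12 CPM (SD, n = 5), without overlap (log2 fold change 0.73, SE 0.18, adjusted p = 0.0173, edgeR quasi-likelihood test). *Keap1*, which marks NRF2 for degradation and is named after its values were seen, was read between 26.8 and 54.1 CPM in control and between 14.6 and 36.8 CPM in mutant, and was not called (adjusted p = 0.0649, edgeR quasi-likelihood test).

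The forkhead genes *Foxo1* and *Foxo3*, whose products can activate *Sod2* and *Cat*, rose without overlap between genotypes. *Foxo1* had 35.6 ± 5.23 CPM in control (SD, n = 4) and 51.0 ± 7.32 CPM in mutant (SD, n = 5), a log2 fold change of 0.52 (SE 0.14, adjusted p = 0.0295, edgeR quasi-likelihood test). *Foxo3* had 18.6 ± 2.80 CPM in control (SD, n = 4) and 27.1 ± 2.69 CPM in mutant (SD, n = 5), a log2 fold change of 0.55 (SE 0.15, adjusted p = 0.0272, edgeR quasi-likelihood test). *Ppargc1b*, a coactivator of mitochondrial genes, fell from 9.61 ± 2.72 CPM (SD, n = 4) to 5.30 ± 0.782 CPM (SD, n = 5), with overlap (log2 fold change −0.86, SE 0.23, adjusted p = 0.0253, edgeR quasi-likelihood test). The call of *Foxo1* was lost without control 71, 73 or 76 or mutant 79, and that of *Foxo3* without control 71 or 73 or mutant 78 or 79, with adjusted p up to 0.0927 and 0.0707 in the edgeR test. That of *Ppargc1b* was lost without control 71, 72 or 73 or mutant 78 or 79 and with Y-linked expression as a covariate, with adjusted p up to 0.0948 in the edgeR test.

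**Figure D2:**
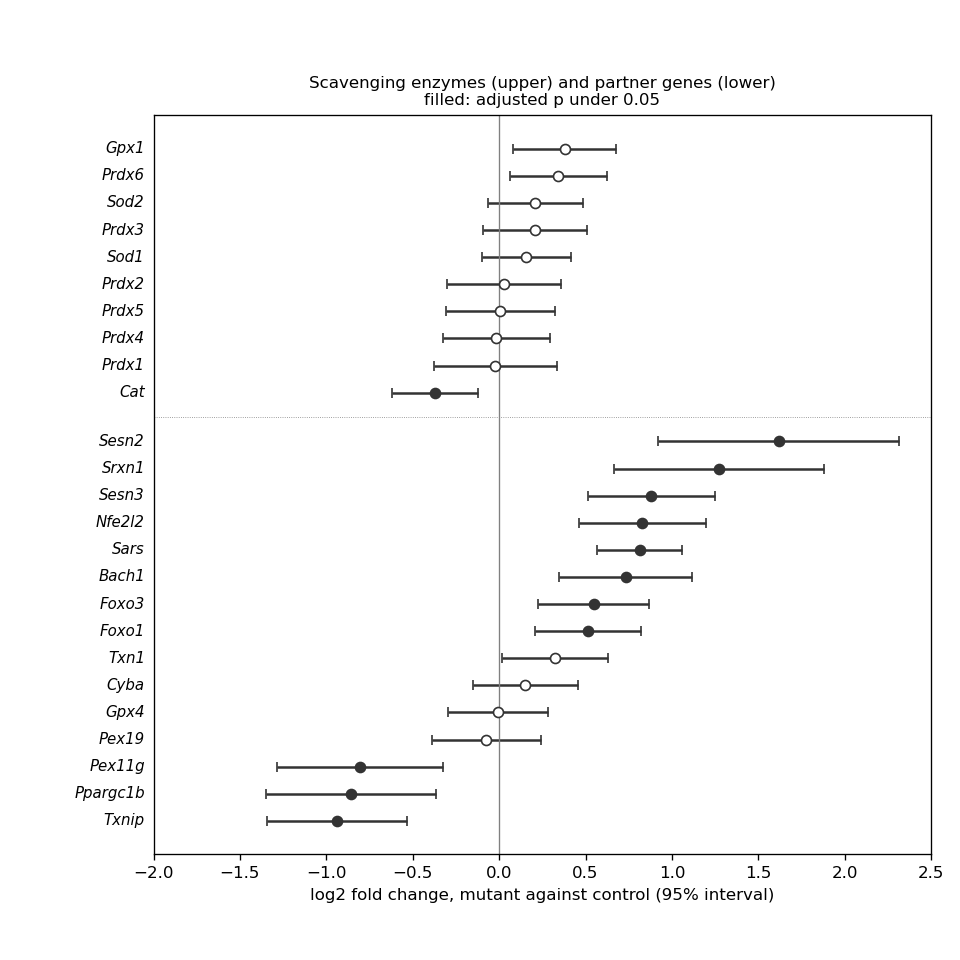
Log2 fold change, mutant against control (horizontal axis), with its 95% interval from the edgeR quasi-likelihood fit, for the 10 enzymes (upper block) and 15 partner genes (lower block); filled points have an adjusted p under 0.05. *Cat*, at −0.37, is the only filled point among the enzymes in this fit, and the intervals of *Gpx1* and *Prdx6* lie above 0 although their adjusted p values do not pass.

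Promoter sequences are shown because *Nfe2l2*, *Bach1*, *Srxn1* and *Sesn2* rose in the main edgeR test, and their products are known to act on antioxidant genes or on the peroxiredoxins. The motif TGACNNNGC, a core of the element that NRF2 and BACH1 recognise, was searched on both strands in the 250 bases before the start of each gene in a RefSeq table of build GRCm38.p6. It was present in 10.2% of 32851 promoters of the same length. Of the 10 enzymes 9 had a promoter in the table (*Prdx6* had none), and 2 of these 9 held the motif, *Prdx1* and *Sod1*. Of 6 partner genes searched, *Sesn2* and *Txnrd1* held it and *Srxn1*, *Sesn3*, *Txnip* and *Txn1* did not. *Txnrd1* had 3 promoters in the table and the other 5 had 1 each. A match is a description of letters and not a site of binding. Each window is written 5′ to 3′ on the strand of its gene, with the motif in capitals, as its reverse complement in *Prdx1* and *Sod1*. Distances are counted from the RefSeq start, which is not the gene start of the count table for these 3 genes. The windows are chr4:116685456-116685484 (+ strand, motif beginning 133 bases before the RefSeq start) for *Prdx1*, chr16:90220696-90220724 (+ strand, 56 bases) for *Sod1*, and chr4:132510474-132510502 (− strand, 36 bases) for *Sesn2*. Against the start in the count table the motif began 78 bases before *Prdx1* and 36 before *Sod1*, and inside *Sesn2*.
Prdx1: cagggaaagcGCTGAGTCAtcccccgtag
Sod1: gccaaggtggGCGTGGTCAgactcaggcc
Sesn2: cgcagcgggcTGACAGAGCcgggcgagcg

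The forkhead motif GTAAACA, searched in the same way, was present in 3.17% of the 32851 promoters and in none of the 9 enzyme promoters. *Txnip*, which fell, held it at chr3:96557826-96557852 (+ strand, motif in capitals, 121 bases before the start), shown as the example among the partner genes.
Txnip: tggaggcctgGTAAACAagggccaagt

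The genes whose log2 CPM ran most closely with *Gpx1* over the 9 libraries were *Rer1* (Pearson r = 0.985), *Zfp566* (0.983) and *Rpl21-ps15* (0.982). For *Cat* they were *Fignl1* (0.967), *Slc26a7* (0.950) and *Cdc45* (0.942). With genotype means taken off they were *Swi5* (0.990), *Taf12* (0.984) and *Commd6* (0.982) for *Gpx1*, and *Fam210a* (0.978), *Zfp160* (0.974) and *Zfp655* (0.960) for *Cat*. These r values are descriptions over 9 libraries that share their genotype groups and the library pattern above.

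Markers of the labelled cell type and of other kidney cells were summed in each library. The 10 progenitor markers, among which *Six2* and *Crym* had the highest means (571 CPM each in control, 704 and 427 CPM in mutant), summed to 2410.3 ± 222 CPM in control (SD, n = 4) and 2513 ± 217 CPM in mutant (SD, n = 5). EdgeR called none of these 10, with 3 at an unadjusted p under 0.05, 0 called by DESeq2 and 2 by limma-voom. Of all tested genes edgeR called 14.8%, 7.82% as higher and 7.02% as lower, and 31.4% had an unadjusted p under 0.05. DESeq2 called 19% of the genes it tested and limma-voom 32.5%. The 9 stromal markers summed to 163, 157, 129 and 219.9 CPM in control 71, 72, 73 and 76 and to 499, 720.1, 278, 304 and 378 CPM in mutant 74, 75, 77, 78 and 79, and 5 of the 9 rose in the main edgeR test. *Foxd1* had the highest mean CPM of them in control (29.9) and *Col3a1* in mutant (83.1). The 7 macrophage markers summed to 2.68, 10.1, 2.66 and 14.3 CPM in control and to 14.1, 48.0, 147, 69.7 and 49.7 CPM in mutant. Of these 7 markers 4 rose in the main edgeR test, which called 7.82% of all tested genes higher. *Cd68* had the highest mean CPM of the macrophage markers in control (2.28) and *C1qb* in mutant (19.1). DESeq2 called 7 of the 9 stromal and 6 of the 7 macrophage markers, all higher, where it called 10.4% of all genes it tested as higher. Limma-voom called 8 stromal markers, 7 of them higher, and all 7 macrophage markers as higher, against 16.1% of all tested genes. Stromal sums did not overlap between genotypes, and macrophage sums overlapped by mutant 74 alone. The 6 endothelial markers, led by *Plvap*, summed to 21.2 ± 3.48 CPM in control (SD, n = 4) and 9.94 ± 2.89 CPM in mutant (SD, n = 5), where 1 rose and 1 fell of 4 tested. *Plvap* alone went from 17.7 ± 3.07 to 4.83 ± 1.73 CPM, and the other 5 together from 3.49 ± 1.19 to 5.11 ± 1.47 CPM (SD, n = 4 and 5), and it was *Pecam1* that rose. DESeq2 called 3 endothelial markers, 2 of them higher. Ureteric, erythroid, proximal tubule and podocyte sums were 19.1, 1.87, 4.34 and 26.7 CPM in control and 17.2, 2.03, 6.74 and 29.3 CPM in mutant as means, and edgeR called none of those it tested, which were 3 of 8 ureteric, 1 of 7 erythroid, 2 of 7 proximal tubule and 3 of 5 podocyte markers. Among these tested markers an unadjusted p under 0.05 was found for 2 ureteric, 0 erythroid, 0 proximal tubule and 2 podocyte markers, DESeq2 called 1 ureteric marker and none of the others, and limma-voom called 1 ureteric and 1 podocyte marker. The erythroid genes *Hba-a2*, *Hbb-bt* and *Slc4a1* had 3 or fewer counts in every library. The part of these other cells in the values of the enzymes was not tested.

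Since the protocol was not strand-specific, reads of genes that overlap on opposite strands cannot be told apart. *Prdx2* shares 177 exon bases with *Rnaseh2a* and 173 with *Junb*, and *Prdx5* shares 409 with *Trmt112*. Per library, *Rnaseh2a* had 2844 to 4278 reads and *Junb* 729 to 6255, against 18589 to 28017 for *Prdx2*. *Trmt112* had 2488 to 3242 reads, against 3203 to 4663 for *Prdx5*. The part of these overlapping genes in the values of *Prdx2* and *Prdx5* was not tested. Reads of near-identical copies may also be divided between genes. The copies *Gm21399* and *Gm7204* together had 0.15% as many reads as *Prdx1*, and *Gm8566* had 0.0732% as many as *Sod1*, while the copy of *Prdx2*, *Tdpx-ps1*, was not analysed here.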

How the data were processed

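RNA-seq of 9 libraries was used, 4 control and 5 mutant, grouped per the labels. According to the labels, cDNA was amplified from low-input RNA with poly(A) selection, and the submitters' processing notes name STAR, DESeq2 and mm10 without versions. The authors deposited read counts per gene, which are the values analysed. The deposited table also holds FPKM from the authors, a normalized signal per genotype from the authors, and the log2 fold change and p-value columns of the authors' own comparison, none of which was used.

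The main test was run with edgeR 4.0.16 under R 4.3.3: filterByExpr on genotype, TMM, and the robust quasi-likelihood test with Benjamini-Hochberg adjustment over 14990 genes. SE values were derived from the fold change and the F statistic. Single values were tested by exact permutation over 126 splits, 2-sided. Alternatives were DESeq2 1.42.0, limma-voom with sample quality weights (limma 3.58.1), RLE and upper-quartile factors, other filters on low counts, 1 surrogate variable (sva 3.50.0), Y-linked expression as a covariate and each library left out. A covariate for the length difference between libraries, and levels per kb of GENCODE M21 exon length, were added after the data were seen. On simulated counts the fit returned the fold sizes put in with few false calls but did not call most of the changed genes, those changed 2-fold included, and the pass criterion was set to those 2 properties after an earlier criterion on the share recovered had not been met. A gene that was not called may therefore have changed.

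Named genes were all 10 enzymes, *Uqcrq*, each called gene of a partner list (the 5 with the smallest adjusted p where more passed), the gene of highest mean CPM in each list, and the 3 genes most alike to *Gpx1* and *Cat* at a mean of at least 10 CPM. The enzymes and lists were chosen with earlier results of these data known. Copies were matched with blastn 2.17.0 at 95% identity over at least 300 bases. That length was raised after a shorter limit had returned short stretches that *Sod2* shares with unrelated genes. Figures were drawn with Python 3.11.15 and matplotlib 3.10.9.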

Additional observations from a re-analysis of the deposited data

Results flagged for a closer look

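A library was singled out where its gap to the nearest other library of its genotype was large against the range of that genotype (Dixon's test at the 95% level). Of 68 groups tested, 8 were singled out, where chance gives about 1 in 20, or 3.4. *Cat* was low in mutant 74, at 126 CPM, with the other mutant libraries at 159 to 166 CPM. *Txnip* was high in control 76, at 299 CPM, against 217 to 226 CPM in the other controls. *Sesn2* was high in mutant 79, at 71.7 CPM, against 26.3 to 30.3 CPM, and *Srxn1* was low in the same library, at 9.39 CPM, against 22.0 to 26.7 CPM. *Pex19* was low in mutant 75, at 156 CPM, against 183 to 191 CPM. *Bach1* was high in mutant 74, at 18.8 CPM, against 13.4 to 14.8 CPM. *Foxo1* was high in control 72, at 43.4 CPM, against 32.0 to 33.7 CPM. The summed progenitor markers were high in control 76, at 2741 CPM, against 2272 to 2334 CPM. Why these libraries stood apart was not tested.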

How the results depend on the processing

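None of the 2225 calls had the opposite sign in any of the 18 alternative fits, each of which gave a value for 2002 to 2225 of them, and *Uqcrq* was called lower in all 18. No paired analysis was made because the labels give no litter or other pairing of control and mutant libraries. Enzymes called lower numbered 1, and 0 with RLE factors, with no filter on low counts, with Y-linked expression as a covariate and with any single library left out (range 0 to 0); with 1 surrogate variable they numbered 2, *Prdx1* joining *Cat* (log2 fold change −0.22, adjusted p = 0.0246, edgeR). Enzymes called higher numbered 0, and 4 with limma-voom (*Sod2*, *Prdx3*, *Prdx6* and *Gpx1*), 2 with 1 surrogate variable, 3 with the length covariate added after seeing the data, and 0 to 2 with 1 library left out (2 without mutant 74). Genes called numbered 2225, and 4868 with limma-voom, 4239 with the length covariate, and 1046 (without control 73) to 3136 (without mutant 74) with 1 library left out, with 1354, 1272 and 1336 called without control 71, control 72 and mutant 78. Called peroxins went from 1 to 2 with DESeq2, 7 with limma-voom, 3 with 1 surrogate variable, 5 with the length covariate and 0 to 2 with 1 library left out. Called genes of the thioredoxin list went from 4 to 7 with limma-voom, of oxidant sources from 0 to 1 with limma-voom, with the length covariate and without control 72 (range 0 to 1), and of further peroxidases from 0 to 1 with 1 surrogate variable. Called selenocysteine genes went from 1 to 2 with limma-voom, 3 with the length covariate and 1 to 2 with 1 library left out (2 without mutant 74). Called regulators numbered 5, and 2 to 6 with 1 library left out, with 2 called without control 71, control 73 or mutant 79 and 3 without mutant 78. Leaving out a library also lowers the number of samples; beyond that, the cause was not tested. With at least 1284 reads for each enzyme in every library, the spread between libraries and not counting error limits these comparisons.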
